A study of Homo sapiens with 43 samples.

Results

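Uninduced HEL cells of the U2AF1 S34F and Q157R lines were compared with uninduced cells of the wild-type (WT) line, to describe what already separated the lines before the exogenous protein was switched on. HEL is a human erythroleukemia cell line. Its derivatives were stably transduced with U2AF1 carrying S34F, with U2AF1 carrying Q157R or with WT U2AF1, so that all groups, the WT group included, carry an exogenous copy that doxycycline induces. The comparison used the RNA-seq libraries labelled as uninduced, 4 of the 43 samples of the series: S34F replicate 1, Q157R replicate 1, and WT replicates 1 and 2, none of them given doxycycline. The 6 induced libraries of the same lines, 2 each of S34F, Q157R and WT after 48 hours with 1 µg/ml doxycycline, were set beside them. The study itself treated uninduced cells as its RNA-seq controls. Each mutant genotype was represented before induction by 1 library, and the labels do not say whether a line was derived from 1 clone.

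U2AF1 is the small subunit of U2AF, which reads the 3′ end of introns: its zinc fingers contact the AG at the intron end while the large subunit, U2AF2, binds the polypyrimidine tract upstream. The heterodimer recruits the U2 snRNP to the branch point. S34F and Q157R lie in the first and second zinc finger, recur in myelodysplastic syndrome and acute myeloid leukemia, and change which 3′ splice sites are used.

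The codons altered in the lines show how small the coding difference between them is. In U2AF1-201, a transcript of the minus strand of chromosome 21 coding for 240 residues, the S34F codon lies in exon 2 at chr21:43104345-43104347 and the Q157R codon in exon 6 at chr21:43094666-43094668 (GENCODE 29, GRCh38). The reference sequence of 27 bases around each is given 5′ to 3′ in transcript orientation, with the codon in capitals.
U2AF1 at the S34F site, serine codon: ggagacaggtgcTCTcggttgcacaat
U2AF1 at the Q157R site, glutamine codon: gcctgctgccgtCAGtatgagatggga
The deposited values were gene counts, which do not separate alleles, so neither codon was read out in these libraries.

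The libraries held 36871904 gene counts for S34F, 28801851 for Q157R, and 24866906 and 32127920 for WT replicates 1 and 2. Reads outside annotated features made up 20.3% of the table in S34F, 20.6% in Q157R, and 19.5% and 19.0% in WT replicates 1 and 2. Markers of the HEL line were present in all 4. GATA1, the master regulator of erythroid and megakaryocytic genes, stood at 198 CPM (counts scaled to library size by TMM) in S34F and 193 in Q157R, against 200.3 and 224 in WT replicates 1 and 2. The fetal globin gene HBG2 had 565 CPM in S34F and 753 in Q157R, against 620 and 270.3 in WT, whereas the embryonic globin gene HBZ was near 0, at 0.63 to 1.24 CPM. Of 19 monocyte and granulocyte markers, 10 did not pass the filter on low counts and were at most 0.229 CPM in any uninduced library, MPO, ELANE and S100A8 among them. The other 9 included LYZ, at 20.8 to 33.7 CPM, and CTSG, at most 1.12 CPM in 3 libraries and 31.0 CPM in WT replicate 2. The T cell marker CD3E and the B cell marker MS4A1 were at or near 0. In such bulk RNA, fewer cells of a type and less RNA per cell cannot be told apart.

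WT replicate 2 stood apart from the other 3 uninduced libraries. Across 21300 genes the Spearman correlation with WT replicate 1 was 0.9899 for S34F, 0.9876 for Q157R and 0.9773 for WT replicate 2, and the SD of the log2 ratio to WT replicate 1 was 0.454, 0.509 and 0.695 in that order. These correlations are across genes, which are not independent replicates. Both mutant libraries thus lay nearer to WT replicate 1 than the WT libraries lay to each other. WT replicate 2 was the highest of the 4 libraries in 35.2% of genes and the lowest in 34.5%. A chi-square comparison of counts over genes with at least 2000 counts gave means of 23.4 to 192 per gene for the 6 pairs of libraries, so no pair agreed within sampling noise. Every comparison with the WT group therefore carries WT replicate 2, and ratios to WT replicate 1, the library that shares replicate number 1 with both mutant libraries, are given beside the gene list medians.

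No gene differed between an uninduced mutant line and WT at an adjusted p under 0.05. Among 21300 genes tested with edgeR's quasi-likelihood test and Benjamini-Hochberg adjustment, 0 (0.0%) were called for S34F, 0 for Q157R, 0 for the mean of both lines, and 0 for S34F against Q157R. At an unadjusted p under 0.05 there were 187 genes (0.878%) for S34F, 235 (1.1%) for Q157R, 298 (1.4%) for the mean of both lines and 159 (0.746%) for S34F against Q157R. Evenly spread p-values would put a share of 0.05 under that threshold, more than in any of these comparisons. The lack of calls therefore does not show that the lines are alike. The lone mutant libraries were assumed to vary like the replicated groups, whose spread sets the test and includes the distance between the WT libraries. DESeq2 and edgeR with the replicate number as a block also called 0 genes in all 4 comparisons. Without a filter on low counts the edgeR fit tested 38670 genes. It called 63 genes for S34F, 119 for Q157R, 143 for the mean of both lines and 32 for S34F against Q157R. Every gene so called had also passed the filter of the main fit. Among the called genes, WT replicate 2 was the highest of the 4 libraries in 59 of 63, 103 of 119 and 142 of 143 in the 3 comparisons with WT. With the block, genes were called in the 3 comparisons with WT when WT replicate 1 was left out, and not when WT replicate 2 was. Without WT replicate 1, mutant libraries of replicate 1 are set against a lone WT library of replicate 2. The replicate effect then comes from the induced libraries alone, and the uninduced libraries do not separate line from replicate number.

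Single-library ratios gave the sizes. Of 10268 genes with a mean log2 CPM of at least 3, 1 (0.00974%) lay past 2-fold in S34F over WT replicate 1 and 31 (0.302%) in Q157R over WT replicate 1, against 380 (3.7%) in WT replicate 2 over WT replicate 1. Against WT replicate 2 the counts were 386 (3.76%) for S34F and 412 (4.01%) for Q157R. A ratio of 2 libraries has no replicate check.

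**Figure D1:**
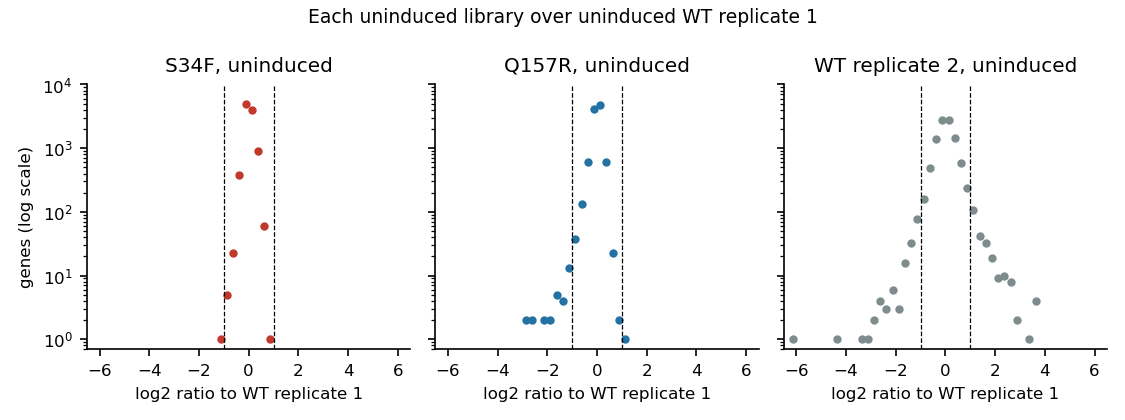
Number of genes (log scale) by log2 ratio to uninduced WT replicate 1 for uninduced S34F, Q157R and WT replicate 2, over 10268 genes with a mean log2 CPM of at least 3. Dashed lines mark 2-fold, past which lie 1 gene in S34F, 31 in Q157R and 380 in WT replicate 2.

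U2AF1, the transgene's own gene, was the first check. Its counts were 741 in S34F and 608 in Q157R, against 313 and 376 in WT, which gave 21.2 and 22.1 CPM in S34F and Q157R against 13.4 and 12.6 CPM in WT. Both mutant libraries lay above both WT libraries. The log2 fold change was 0.70 ± 0.35 (SE) in S34F, 0.77 ± 0.35 in Q157R and 0.74 ± 0.29 for the mean of both, with an unadjusted p of 0.0367 for the mean and an adjusted p of 1, so the difference was not called. After induction U2AF1 stood at 18.01 and 19.4 CPM in S34F and at 21.5 and 15.2 CPM in Q157R, against 19.1 and 11.01 CPM in WT, and the groups overlapped. Reads from the transgene, the endogenous gene and its close copies cannot be told apart in these counts. Reads that mapped to several places were tallied apart and entered no gene count. How many of them came from U2AF1 was not tested. The U2AF1 values thus cover only the reads assigned to that gene. Neither the full U2AF1 level nor its change on induction can be read from them. The copy U2AF1L5 at chr21:6484623-6499261 received 38 counts in S34F and 29 in Q157R, against 15 and 14 in WT. U2AF2, the large subunit, stood at 361.5 CPM in S34F and 398 CPM in Q157R, against 399 and 347.5 CPM in WT. Its mutant values lay within the WT range, and the log2 fold change of the mean was 0.02 ± 0.24, with -0.17 under the replicate block.

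Among genes with a mean log2 CPM of at least 3, those nearest to the threshold in both lines were small in size of difference. None was called, so the genes named here were those with the lowest unadjusted p and with both mutant libraries outside the WT range, a range that 34.2% of all genes tested met. NDUFC2, a subunit of mitochondrial complex I, had the lowest p of them: 7.498 CPM in S34F and 9.14 in Q157R, against 14.2 and 13.4 in WT, a log2 fold change of the mean of -0.74 ± 0.21 (unadjusted p = 0.00867, edgeR). The gap was wider than that between the WT libraries. GABBR1, a subunit of the GABA-B receptor, stood at 112 CPM in S34F and 93.1 in Q157R, against 78.9 and 65.1 in WT (0.51 ± 0.18, unadjusted p = 0.0227). CD46, a membrane regulator of complement, stood at 250.4 and 208 CPM in S34F and Q157R, against 188.5 and 124 in WT. NEAT1, the noncoding scaffold of paraspeckles, had 304 CPM in S34F and 297 in Q157R, against 245 and 153 in WT. For CD46 and NEAT1 the WT libraries lay farther from each other than either mutant library lay from WT replicate 1.

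Others higher in both lines, again without a call, were HYPK, a cofactor of N-terminal acetylation, SEMA3E, a semaphorin, MZF1, a zinc finger factor of myeloid cells, ENGASE, an endoglycosidase, CCDC136 and the noncoding RNA LINC01993. Their log2 fold changes of the mean ran from 0.41 for MZF1 to 0.64 for HYPK. HYPK stood at 8.81 CPM in S34F and 6.70 in Q157R, against 5.404 and 4.497 in WT. The lower ones were NOPCHAP1, a chaperone of snoRNP assembly, the histone genes H4C1 and H2AC15, GAB2, a docking protein of cytokine receptor signalling, C4orf48, LIMD2, ALKBH2, a DNA repair dioxygenase, SELENOH, a selenoprotein, and DGCR6L. Their log2 fold changes of the mean ran from -0.46 for SELENOH to -0.96 for GAB2. GAB2 stood at 12.3 CPM in S34F and 10.6 in Q157R, against 13.9 and 30.2 in WT. Its fold change rested on WT replicate 2, since WT replicate 1 lay close to both mutant libraries. C4orf48 stood at 6.84 and 6.96 CPM in S34F and Q157R, against 12.1 and 11.4 in WT, where both WT libraries were alike.

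**Figure D2:**
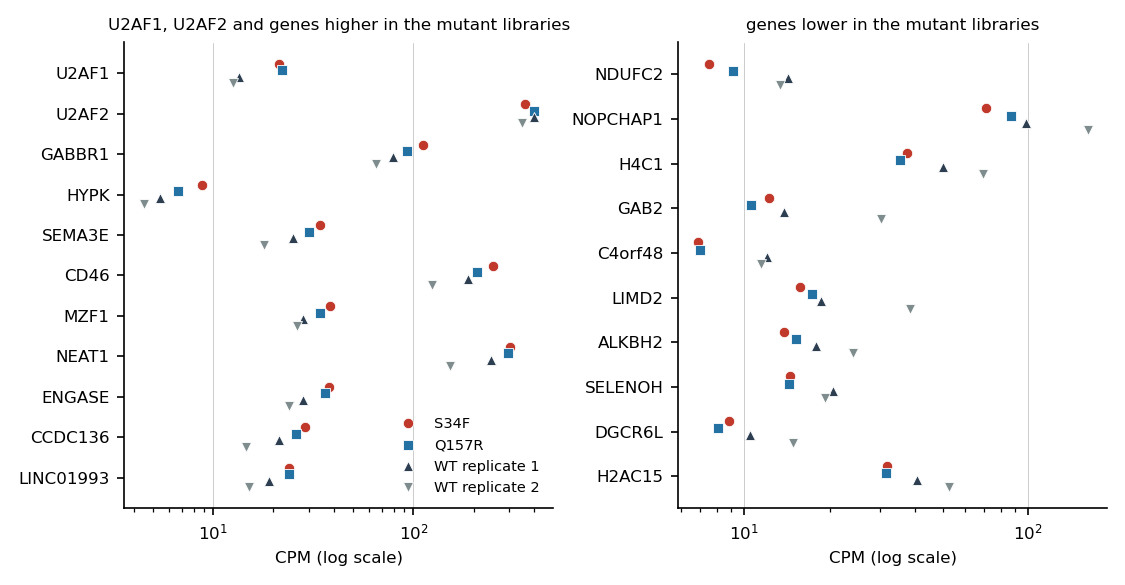
CPM (log scale) of U2AF1, U2AF2 and the 19 other genes named by the lowest unadjusted p for the mean of both uninduced mutant lines against WT. Named genes had a mean log2 CPM of at least 3. Points are single libraries, of S34F, Q157R and WT replicates 1 and 2; U2AF1 lies at 21.2 and 22.1 CPM in S34F and Q157R, against 13.4 and 12.6 in WT.

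The genes named for S34F alone were again those of lowest unadjusted p with a mean log2 CPM of at least 3. They differed by less than 2-fold, apart from ADD2 and TF. Over all levels, the 106 higher and 81 lower genes at an unadjusted p under 0.05 (edgeR) had median log2 fold changes of 1.502 and -2.324. UFL1, the ligase of the ubiquitin-like modifier UFM1, stood at 106 CPM in S34F, against 73.7 and 73.6 in WT, and Q157R lay between at 85.8. Its log2 fold change was 0.53 ± 0.20 (unadjusted p = 0.0266, edgeR). The remaining ones higher in S34F were TFPI, the inhibitor of the tissue factor pathway, ATG16L2, PPP1R3E, a glycogen-targeting phosphatase subunit, VWDE and POFUT2, a protein O-fucosyltransferase, with log2 fold changes of 0.52 to 0.65. POFUT2 stood at 75.4 CPM in S34F, against 54.0 and 42.2 in WT. The lower ones were ADD2, an adductin of the membrane skeleton, GGCT, PSMA1, a proteasome subunit, PMVK, an enzyme of the mevalonate pathway, TF, which encodes transferrin, and FEV, an ETS factor, with log2 fold changes of -0.56 to -2.89. GGCT stood at 12.2 CPM in S34F, against 18.4 and 17.8 in WT. TF carried the widest of these values and was set by 1 library: it stood at 3.15 CPM in S34F, against 3.69 in WT replicate 1 and 42.8 in WT replicate 2.

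Among the genes named for Q157R alone, the lowest unadjusted p belonged to ZNF469, a zinc finger gene of collagen synthesis. It stood at 15.4 CPM in Q157R, against 24.1 and 27.7 in WT, with S34F at 24.6. Its log2 fold change was -0.75 ± 0.24 (unadjusted p = 0.0144, edgeR). TIMP3, the matrix-bound inhibitor of metalloproteinases, was the most abundant of the genes named for Q157R, with 634 CPM in Q157R, against 1185 and 1376 in WT, while S34F had 1282. TIMP3 lies within SYN3 on the opposite strand, and SYN3 itself stood at 12.1 CPM in Q157R, against 11.1 and 10.8 in WT. KALRN, a guanine nucleotide exchange factor for Rac, stood at 45.0 CPM in Q157R, against 66.7 and 93.7 in WT, and S34F had 70.4. SLC16A3, a lactate exporter, stood at 12.1 CPM in Q157R, against 19.99 and 23.4 in WT. The other lower ones were MCF2L, KRCC1, EXOC3L2, HDAC5, a class II histone deacetylase, and BMF, a BH3-only death factor, with log2 fold changes of -0.67 to -1.73.

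The genes higher in Q157R were led by LIF, a cytokine of the interleukin-6 family, at 17.7 CPM in Q157R, against 8.54 and 9.30 in WT, with S34F at 7.01. Its log2 fold change was 0.99 ± 0.40 (unadjusted p = 0.0383, edgeR). The others were HPGD, which degrades prostaglandins, RFK, a riboflavin kinase, B4GALT6, GULP1 and the sodium channel gene SCN9A, with log2 fold changes of 0.48 to 0.82. HPGD stood at 37.4 CPM in Q157R, against 27.0 and 16.2 in WT, and here the WT libraries lay as far from each other as Q157R from the nearer of them.

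Of the 31 genes past 2-fold between Q157R and WT replicate 1, 30 were lower in Q157R and 1, LIF, was higher. The ratios of Q157R and of WT replicate 2 share WT replicate 1 below the line, so the levels are given side by side, and no overlap is read from them. ALDOC, a glycolytic aldolase, stood at 5.28 CPM in Q157R, against 36.8 in WT replicate 1 and 3.29 in WT replicate 2, while S34F had 48.9. FGF23, a phosphate-regulating hormone, stood at 13.7 CPM in Q157R, against 94.2 and 1.38 in WT replicates 1 and 2, and S34F had 119.5. In both genes S34F lay above WT replicate 1 and Q157R between the WT libraries. On the log2 scale the ratios to WT replicate 1 were -2.79 in Q157R and -3.46 in WT replicate 2 for ALDOC, and -2.78 and -6.03 for FGF23. SLC6A8, a creatine transporter, stood at 8.52 CPM in Q157R, against 53.4 and 7.72 in WT, and at 56.5 in S34F. PFKFB4, which sets the level of a glycolytic activator, stood at 28.3 CPM in Q157R, against 97.4 and 4.73 in WT, and at 117 in S34F. The same order held for MT2A, a metallothionein, with 9.40 CPM in Q157R, against 44.1 and 5.94 in WT, and 46.1 in S34F.

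In many of the further genes Q157R lay between the WT libraries. BNIP3, a mitophagy receptor, stood at 58.5 CPM in Q157R, against 121 and 13.5 in WT, with 149 in S34F. EGLN3, a prolyl hydroxylase that acts on hypoxia-inducible factors, stood at 5.50 CPM in Q157R, against 12.7 and 2.15 in WT, with 12.7 in S34F. BHLHE40, a transcriptional repressor, stood at 44.5 CPM in Q157R, against 117 and 26.8 in WT, with 139 in S34F. Q157R lay between the WT libraries in all 3. EGR1, an immediate early factor, stood at 43.9 CPM in Q157R, against 88.9 and 21.2 in WT, with 114 in S34F. The same place was held by SMIM24, CAPN5, SPAG4, CSMD2, TRIB1, CCN1, GBE1, LOX and INKA2. Q157R lay below both WT libraries for N4BP3, NDRG1, ABCC3, CD300A and MIF, with NDRG1 at 12.3 CPM in Q157R, against 37.7 and 17.1 in WT. Over all these, apart from the 4 given first, log2 ratios to WT replicate 1 ran from -2.65 for N4BP3 to -1.03 for INKA2 in Q157R, and from -2.51 for CAPN5 to -1.04 for MIF in WT replicate 2.

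Q157R and WT replicate 2 parted at DDIT4, an inhibitor of mTORC1 that stress induces. It stood at 17.3 CPM in Q157R, against 61.6 and 344 in WT, and at 67.1 in S34F, so that the Q157R ratio to WT replicate 1 was -1.83 on the log2 scale and that of WT replicate 2 was 2.48. The unnamed gene ENSG00000272405 went the same way, at 5.28 CPM in Q157R, against 11.1 and 23.6 in WT. MCF2L, MXI1, RN7SKP80, ARHGAP39 and RAB20 lay at -1.25 to -1.01 in Q157R and at -0.94 to 0.80 in WT replicate 2 (log2 ratios to WT replicate 1). Of the 57 genes past 2-fold between S34F and Q157R, 56 were higher in S34F (0.555% of 10268 for either direction). The 1 gene past 2-fold in S34F over WT replicate 1 was the 7SK pseudogene RN7SKP203, at 7.21 CPM in S34F, against 14.6 and 8.69 in WT. MIF, an inflammatory cytokine, came near, at 13.2 CPM in S34F and 11.4 in Q157R, against 25.8 in WT replicate 1 and 12.6 in WT replicate 2: here WT replicate 1 was the library that stood off. In Q157R, RAB20 at -1.01 and EGR1 at -1.02 lay just past the 2-fold line, and RN7SKP203, at -0.93, just short of it (log2 ratios).

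**Figure D3:**
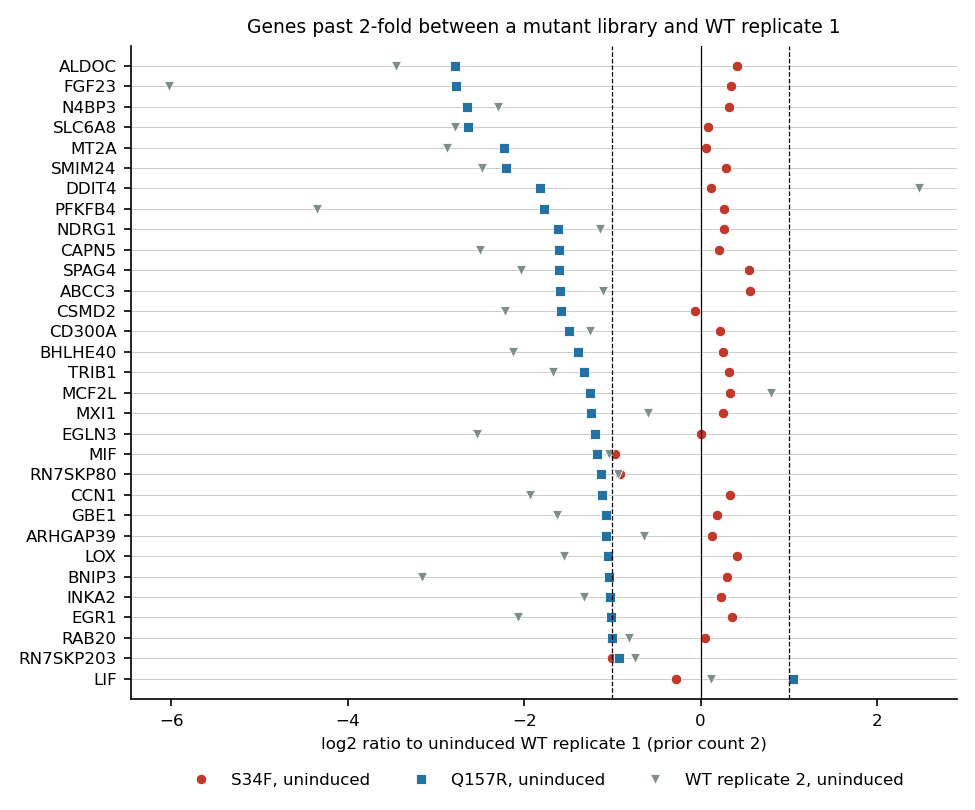
Log2 ratio to uninduced WT replicate 1 of the named genes past 2-fold in S34F or Q157R, for S34F, Q157R and WT replicate 2. S34F lies near 0 for most genes, ALDOC lies at -2.79 in Q157R and -3.46 in WT replicate 2, and DDIT4 lies at -1.83 in Q157R and 2.48 in WT replicate 2.

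The direct comparison of the mutant lines, 1 library each and both replicate 1, called no gene. Among the genes named for it, SLC37A1, a glucose-6-phosphate transporter, led by unadjusted p. It stood at 306 CPM in S34F, against 163.5 in Q157R (0.91 ± 0.26 on the log2 scale, unadjusted p = 0.00737, edgeR). CD9, a tetraspanin of platelets, stood at 89.0 CPM in S34F, against 51.7 in Q157R. ITGB3, the β3 subunit of the platelet fibrinogen receptor, stood at 212 CPM in S34F, against 127 in Q157R, and YPEL3 at 17.3 against 6.45. The WT libraries lay between them in all 4 genes, with ITGB3 at 189 and 158 CPM. Higher in Q157R were LIF, AHNAK, HOXD13 and HELLPAR, a long noncoding RNA: AHNAK, a giant scaffold protein, stood at 64.5 CPM in S34F, against 107 in Q157R, and HOXD13 at 10.9 against 17.2.

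The gene lists of this cell type were described by their counts and medians, with no list test, beside a median of -0.02 over all genes in both comparisons with WT and of 0.00 over WT replicate 1. No member of any list was called in an uninduced comparison, against a background of 0.0%. Of 32 erythroid markers tested, 14 were higher and 18 lower in S34F (median -0.02) and 23 higher and 9 lower in Q157R (median 0.16), with medians over WT replicate 1 of -0.01 and 0.09. SLC25A37, the mitochondrial iron importer of erythroid cells, stood at 582 CPM in S34F and 506 in Q157R, against 529 and 399.7 in WT. TFRC, the transferrin receptor, stood at 725 and 902 CPM, against 688 and 588 in WT. The megakaryocyte and platelet markers parted the lines over WT replicate 1: 20 of 25 were above it in S34F (median 0.23) and 21 of 25 below it in Q157R (median -0.13). WT replicate 2 had a median of -0.08 over WT replicate 1 in this list, near that of Q157R. THBS1, a platelet matrix protein, stood at 3413 CPM in S34F and 2368 in Q157R, against 2612 and 1774 in WT, and ITGA2B, the αIIb integrin, at 1377 and 1028, against 1107 and 1404. Integrins and extracellular matrix genes, which share THBS1 and TIMP3 as their most abundant members, had 24 of 29 above WT replicate 1 in S34F (median 0.23) and 19 of 29 below it in Q157R (median -0.14). Stem and progenitor genes gave medians of -0.07 in S34F and -0.01 in Q157R over 18 genes, and of -0.01 and 0.04 over WT replicate 1, with GATA2 at 727 and 662 CPM, against 726 and 781 in WT, and TAL1 at 459 and 509, against 489.5 and 435.

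The widest list medians against the WT group, those of the monocyte and granulocyte markers in Q157R and of the integrated stress response in both lines, belonged to lists that set WT replicate 2 off. The integrated stress response raises ATF4, which switches on genes of amino acid supply when translation is restrained. Of its 30 genes tested, 30 were lower in S34F than in the WT group (median -1.08) and 28 were lower in Q157R (median -1.46). Over WT replicate 1 the medians were 0.12 in S34F and -0.09 in Q157R, against 1.83 for WT replicate 2. The summed level of the list was 4028 CPM in S34F and 3579 in Q157R, against 3847 in WT replicate 1 and 10230 in WT replicate 2. The difference from the WT group thus rested on WT replicate 2. Among the induced libraries the sum was 2729 and 3936 CPM in S34F replicates 1 and 2 and 4438 and 7848 CPM in Q157R replicates 1 and 2, against 4323 and 8913 CPM in WT replicates 1 and 2, so that replicate 2 exceeded replicate 1 in each line.

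The members showed the same order singly. CHAC1, which degrades glutathione, stood at 9.30 CPM in S34F and 4.26 in Q157R, against 8.41 in WT replicate 1 and 98.9 in WT replicate 2. SESN2, a stress sensor upstream of mTORC1, stood at 21.7 and 16.1 CPM, against 20.97 and 270.9 in WT. ASNS, the asparagine synthetase, stood at 4.32 and 3.02 CPM, against 3.22 and 11.4 in WT. The most abundant members were the amino acid transporters SLC1A5, at 667 CPM in S34F and 606 in Q157R, against 585 and 1165 in WT, and SLC7A5, at 626 and 534, against 574 and 1217. WT replicate 2 was the high library in all 5. ATF4 binds composite sites of the form TGATGNAA, and a search of RefSeq promoters (GRCh38.p14, 250 bases before to 50 after each start, both strands, reverse TTNCATCA) found this motif in 1270 of 35116 promoters (3.62%), or in 1217 of 27305 genes (4.46%), and in 7 of the 24 list members with an entry (29.2%), of 31 members in all. The list was one of integrated stress response and ATF4 targets, so a higher share was built into its choice and is no evidence on these libraries. The windows of CHAC1 and ASNS are shown because each holds the motif, here in capitals, in a gene with a wide gap between WT replicate 2 and the other libraries. Each window is 300 bases, at chr15:40953221-40953520 on the plus strand for CHAC1 and chr7:97872359-97872658 on the minus strand for ASNS.
CHAC1 promoter: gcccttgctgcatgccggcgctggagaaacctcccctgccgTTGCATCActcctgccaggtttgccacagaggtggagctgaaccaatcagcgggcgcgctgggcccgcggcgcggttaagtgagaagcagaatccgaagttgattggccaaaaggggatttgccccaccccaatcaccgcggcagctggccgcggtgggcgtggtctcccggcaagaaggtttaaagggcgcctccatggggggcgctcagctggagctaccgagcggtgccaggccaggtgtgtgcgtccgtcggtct
ASNS promoter: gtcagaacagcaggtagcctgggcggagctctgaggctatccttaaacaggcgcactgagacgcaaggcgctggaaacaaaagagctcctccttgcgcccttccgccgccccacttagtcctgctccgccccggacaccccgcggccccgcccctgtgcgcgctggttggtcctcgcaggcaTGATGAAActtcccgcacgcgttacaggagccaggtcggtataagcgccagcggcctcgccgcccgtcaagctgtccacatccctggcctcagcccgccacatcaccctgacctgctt
The motif begins 209 bases before the start in CHAC1 and 68 bases before it in ASNS. A match in these letters is a description and was not linked to binding here.

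Cholesterol synthesis genes went the other way in WT replicate 2. Of 24 tested, 23 were higher in S34F (median 0.57) and 19 in Q157R (median 0.23) than in the WT group. Over WT replicate 1, 22 of 24 were above it in S34F (median 0.22), 22 of 24 below it in Q157R (median -0.15), and the median of WT replicate 2 was -1.06. SQLE, the squalene epoxidase, stood at 715 CPM in S34F and 578 in Q157R, against 619 and 254 in WT. S34F lay slightly above and Q157R slightly below WT replicate 1 in this list as a whole. Heat shock and cytosolic chaperones were likewise set by WT replicate 2 (median over WT replicate 1 of -0.76), with medians of -0.17 in S34F and 0.05 in Q157R over WT replicate 1. HSPA8, the constitutive Hsp70, stood at 2070 CPM in S34F and 2423 in Q157R, against 2341 and 1159 in WT, and HSP90AB1 at 2345 and 2535, against 2605 and 2023. Endoplasmic reticulum chaperones had medians of 0.21 in S34F and 0.22 in Q157R against the WT group and of 0.11 and 0.08 over WT replicate 1. CANX stood at 1783 and 1693 CPM, against 1542 and 1240 in WT, and CALR at 1160 and 1152, against 1067 and 570.4.

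Monocyte and granulocyte markers, of which 9 of 19 passed the filter on low counts, summed to 31.5 CPM in S34F and 32.4 in Q157R, against 33.4 and 86.9 in WT. LYZ, lysozyme, stood at 20.8 and 21.7 CPM, against 23.3 and 33.7 in WT, and ITGAM, the αM integrin, at 5.38 and 7.47, against 5.32 and 6.98. CTSG, the granule protease cathepsin G, stood at 0.86 and 0.98 CPM, against 1.12 in WT replicate 1 and 31.0 in WT replicate 2. Lymphoid markers summed to 31.5 CPM in S34F and 30.7 in Q157R, against 30.4 and 52.0 in WT, with CD7 at 14.6 and 12.0, against 13.1 and 19.7, and CD4 at 4.58 and 4.08, against 5.02 and 17.6. Stromal and epithelial markers summed to 501 and 411.5 CPM, against 440.4 and 411 in WT, mostly from PECAM1, which platelets also carry, at 389 and 318, against 324 and 282, and KRT18 at 77.7 and 67.6, against 81.9 and 86.8. The part of these marker levels in the other differences was not tested.

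Ribosomal protein genes lay a little below both WT libraries in both mutant lines by their medians. Of 70 cytosolic ribosomal protein genes, 68 were below WT replicate 1 in S34F (median -0.17) and 70 in Q157R (median -0.19), while WT replicate 2 had a median of 0.01. Against the WT group the medians were -0.19 and -0.20. RPS6 stood at 1775 CPM in S34F and 1698 in Q157R, against 1980 and 2106 in WT, and RPL4 at 1630 and 1596, against 1747 and 2109. Each single difference was within its error, at -0.20 ± 0.26 for RPS6 in S34F. Many ribosomal protein genes have near-identical processed copies, so counts may be split between them, and the 1641 processed pseudogenes tested had medians of -0.25 in S34F and -0.22 in Q157R. Of 49 replication-dependent histone genes, 43 were below WT replicate 1 in S34F (median -0.26) and 46 in Q157R (median -0.24), where WT replicate 2 had a median of -0.16, and 40 and 38 were below the WT group (medians -0.15 and -0.18). H1-5 stood at 696 and 734 CPM, against 805 and 644 in WT, and H1-2 at 650.3 and 590.4, against 675 and 584, all within the WT range. Histone transcripts lack poly(A) tails and were kept by the rRNA-depletion protocol. Proliferation genes gave medians of -0.08 in S34F and -0.02 in Q157R over WT replicate 1 for 40 genes, with MKI67 at 858 and 855 CPM, against 981 and 713 in WT, and CENPF at 695 and 677, against 758 and 528.

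Lists bound to splicing differed little from the WT group. The 25 genes of 3′ splice site recognition and the U2 snRNP had medians of -0.03 in S34F and 0.09 in Q157R against the WT group, with SF3B1, the branch-point factor, at 429 and 460.1 CPM, against 454 and 403 in WT, and SF3B3 at 441 and 481, against 482 and 430. Over WT replicate 1, 24 of the 25 lay below it in S34F (median -0.14) and 13 in Q157R (median 0.00), while WT replicate 2 had a median of -0.20. The 35 SR and hnRNP proteins had medians of -0.02 and 0.13, and of -0.12 and 0.01 over WT replicate 1, with HNRNPA1 at 1377 and 1383 CPM, against 1451 and 1589, and HNRNPU at 1251 and 1381, against 1410 and 1284. For nonsense-mediated decay factors the medians were -0.12 and -0.01 over 18 genes, and -0.06 and 0.03 over WT replicate 1, with SMG1, the kinase of UPF1, at 214 and 239.5 CPM, against 264 and 280.1 in WT, and NBAS at 263 and 245, against 234 and 239. Genes recalled from the literature as alternatively spliced in U2AF1-mutant cells had medians of -0.06 in S34F and 0.04 in Q157R over 23 genes, the same to 2 decimals over WT replicate 1. KMT2D, a histone methyltransferase of this list, stood at 514 and 548 CPM, against 716 and 645 in WT, and PTBP1 at 862 and 887, against 883 and 729. Gene counts do not show which exons were used. For nuclear-retained long noncoding RNAs the medians were -0.06 and -0.07 over 12 genes, and 0.01 and 0.07 over WT replicate 1, with MALAT1 at 2651 and 2333 CPM, against 2319 and 3231, and NORAD at 543 and 557, against 598 and 699.

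Signalling, stress and metabolic lists had small medians. JAK-STAT targets are of interest because HEL carries the activating JAK2 allele of myeloproliferative disease; their medians over 20 genes were -0.09 in S34F and -0.24 in Q157R. Over WT replicate 1 they were 0.03 and -0.09, with 0.23 for WT replicate 2. Among them were STAT3 at 484 and 477 CPM, against 516 and 612 in WT, and JAK2 at 377 and 393, against 368 and 439. Immediate early and ERK feedback genes parted the lines, with 18 of 25 above WT replicate 1 in S34F and 20 of 25 below it in Q157R (medians 0.09 and -0.21). Among them MYC stood at 441 and 453 CPM, against 480.1 and 672 in WT, and IER2 at 123 and 103, against 115 and 118. Inflammatory and NF-κB targets did likewise, with medians over WT replicate 1 of 0.17 in S34F and -0.26 in Q157R over 18 genes, IL1B at 154 and 125 CPM, against 133 and 113, and NFKB1 at 78.0 and 84.0, against 84.3 and 79.3. The p53 targets had medians of -0.09 and -0.08 over 22 genes, and of -0.01 and -0.02 over WT replicate 1, with CCNG1 at 273 and 265 CPM, against 258 and 379, and MDM2 at 212 and 230.3, against 232 and 222. Interferon-stimulated genes had medians of -0.21 in S34F and -0.11 in Q157R over 30 genes. Over WT replicate 1 the medians were 0.00 and 0.01, with 0.32 for WT replicate 2, so that the lower values rested on WT replicate 2. Among them was STAT2 at 79.6 CPM in S34F and 78.3 in Q157R, against 78.3 and 77.4 in WT. Nuclear oxidative phosphorylation genes had medians of -0.03 and 0.03 over 41 genes, and of -0.09 and -0.05 over WT replicate 1, with the ATP synthase subunits ATP5F1B at 948 and 1032 CPM, against 1008 and 912, and ATP5F1A at 428 and 458, against 459 and 467. Mitochondrially encoded mRNAs had medians of 0.06 and -0.11, and of 0.14 and -0.03 over WT replicate 1, with MT-CO1 at 6502 and 5466 CPM, against 4877 and 7226, and MT-ND4 at 3548 and 2907, against 2872 and 3647. Fatty acid oxidation enzymes had medians of -0.09 and -0.08 over 26 genes, and of -0.01 and -0.03 over WT replicate 1, with HADHA, the trifunctional protein α subunit, at 267 and 242 CPM, against 270.2 and 314, and ACSL3 at 290.4 and 268, against 235 and 152.

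**Figure D4:**
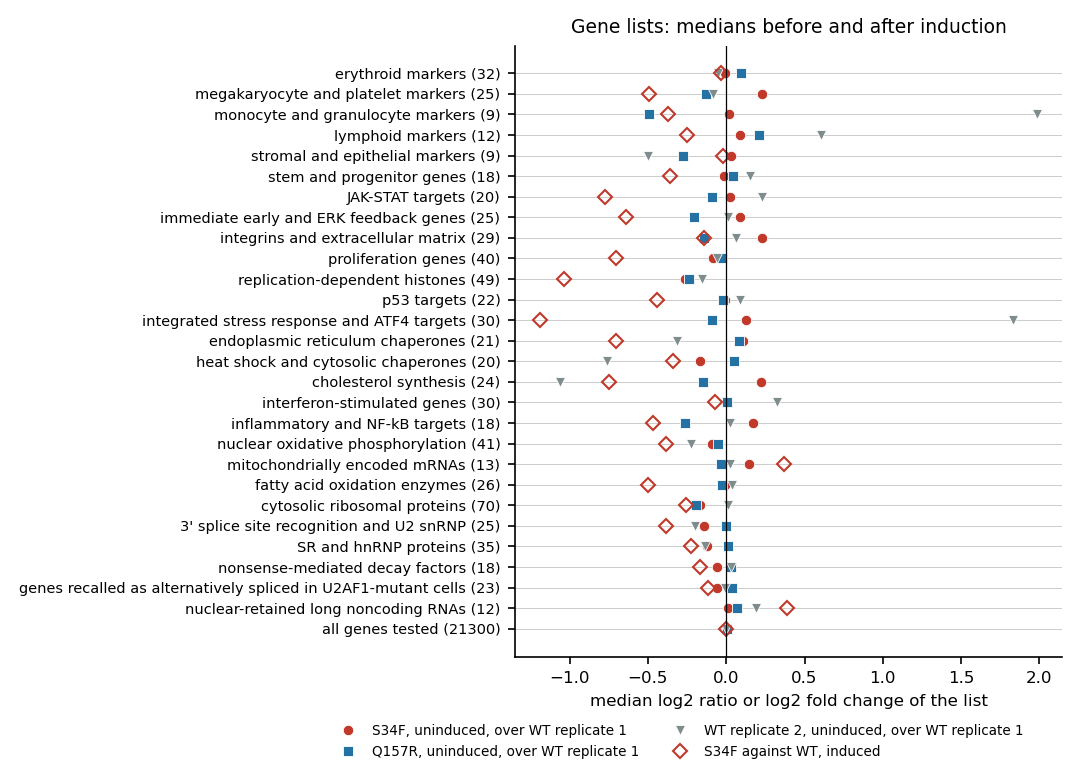
Median log2 ratio to uninduced WT replicate 1 of each gene list in uninduced S34F, Q157R and WT replicate 2, and the median log2 fold change of S34F against WT after induction; the number of genes tested is in brackets. The mutant medians lie between -0.49 and 0.23, while WT replicate 2 reaches 1.99 for the monocyte and granulocyte markers, 1.83 for the integrated stress response and -1.06 for cholesterol synthesis.

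The induced libraries gave the scale against which these small differences stand. After induction S34F had 360 calls against WT (1.69%), of which 149 were for higher (0.7%) and 211 for lower genes (0.991%). Q157R had 0, with 719 genes (3.38%) at an unadjusted p under 0.05, 2 calls (0.00939%, both lower) under the block and 3 in DESeq2. With the replicate block the S34F count was 4603 (21.6%), 1941 higher (9.11%) and 2662 lower (12.5%), and without the block it was 0 when any 1 library of induced S34F, induced WT or uninduced WT was left out. The induced and uninduced contrasts share no library, but the fit took the spread for both from all RNA-seq libraries. Of the 149 genes called higher in induced S34F, 96 (64.4%) were also higher before induction, where 47.5% of all genes were, and their median log2 fold change was 1.87 after induction and 0.16 before it. Of the 211 called lower, 150 (71.1%) were lower before induction, where 52.4% of all genes were, with medians of -1.17 after and -0.09 before. All genes are no matched background for either set, since gene classes differed in uninduced S34F. The median was 0.08 for antisense genes and 0.11 for sense intronic RNAs, against -0.02 for protein-coding genes. No line difference before induction is read from these shares. Before induction, 16 of the 149 and 0 of the 211 lay past 2-fold, in the same or in the opposite direction. Among the 16 were COLEC11 at 1.78 and, in the opposite direction, AQP2 at -2.24 (log2 fold changes). In the same direction on the log2 scale, 5 of the 149 and 0 of the 211 were at least 50% as large before induction as after it.

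Those 5 were CTSK, LINC01729, PSMD6-AS2, a Y RNA copy and the unnamed gene ENSG00000230387. CTSK, the collagen-degrading cathepsin K, stood before induction at 7.07 CPM in S34F, against 4.55 and 4.598 in WT, with Q157R at 5.46, and after induction at 17.5 and 16.4 CPM in S34F, against 8.25 and 6.66 in WT. S34F lay above both WT libraries at each time. PSMD6-AS2, an antisense RNA, stood at 5.15 CPM in uninduced S34F, against 3.26 and 3.12 in WT, and at 12.1 and 11.4 CPM in induced S34F, against 4.74 and 4.86. Without a stated strand setting its reads cannot be told from those of PSMD6. LINC01729 was near 0 before induction, at 0.0859 CPM in S34F, against 0 in both WT libraries.

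**Figure D5:**
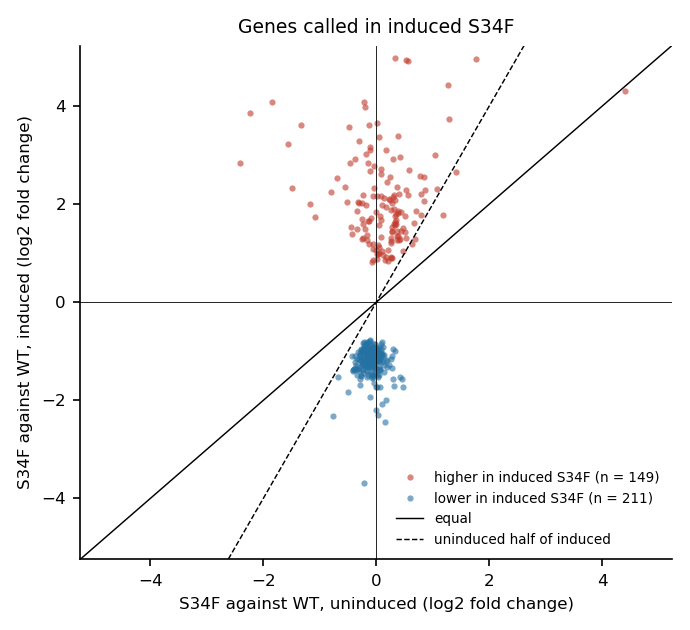
Log2 fold change of S34F against WT after induction (vertical) and before it (horizontal) for the 149 genes called higher and the 211 called lower in induced S34F. The induced medians are 1.87 and -1.17, and the uninduced medians 0.16 and -0.09. Before induction, 16 of the 149 and 0 of the 211 lay past 2-fold, in the same or in the opposite direction.

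The genes of low p before induction were followed in the other direction. Of 106 genes higher in uninduced S34F at an unadjusted p under 0.05, 90 (84.9%) were higher in induced S34F too, where 50.0% of all genes were, with medians of 1.502 before and 0.73 after induction. Of 81 lower in uninduced S34F, 29 (35.8%) were lower after induction, where 50.0% of all genes were, and their median after induction was 0.47, in the opposite direction. In Q157R 69 of 106 (65.1%) higher ones and 79 of 129 (61.2%) lower ones kept their direction, where 48.5% and 51.5% of all genes had it. These were genes of low level, with median log2 CPM of -0.87 and -1.42 for the S34F genes and -1.36 and -1.03 for the Q157R genes. Both S34F sets, the higher and the lower, had a positive median after induction (0.73 and 0.47). The share over all genes is therefore no matched background for them, and no lasting line difference is read from these shares. The uninduced differences chose them, but the spread behind the p-values and the expression filter also came from the induced libraries. The induced values are thus not fully independent of that choice.

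Whether the S34F difference itself changed with induction was tested as an interaction. Without the replicate block no gene passed in edgeR, with 1743 (8.18%) at an unadjusted p under 0.05. In DESeq2 27 passed, 16 with a difference that rose and 11 with one that fell. The replicate block gave 41 genes (0.192%), 8 with a difference that rose (0.0376%) and 33 with one that fell (0.155%). Without WT uninduced replicate 1 or 2 the fit with the block called 1047 or 164 genes. All 41 were also called between induced S34F and WT in the fit with the block. In uninduced cells S34F lay within the WT range for 24 of them (it lay outside that range for 60.4% of all genes). None lay past 2-fold over WT replicate 1, where 1141 of the 21300 genes tested (5.36%) did. Their median absolute log2 ratio over WT replicate 1 was 0.10. The interaction that chose these genes holds the same induced and uninduced libraries. The induced calls and the uninduced values of these genes are therefore no separate evidence. UBASH3B, a phosphatase that restrains kinase signalling, stood at 74.8 and 110.2 CPM in induced S34F, against 465 and 446 in induced WT, and at 421 CPM in uninduced S34F, against 436 and 388 in uninduced WT. Its difference changed by -2.39 ± 0.28 with the block (adjusted p = 0.0344, edgeR; 0.583 without it). TIMP3 stood at 437 and 511.5 CPM in induced S34F, against 1666 and 2687 in induced WT, and at 1282 CPM in uninduced S34F, against 1185 and 1376 in uninduced WT. In both genes the induced groups did not overlap and the uninduced S34F library sat beside WT.

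MXD4, an antagonist of MYC, stood at 53.3 and 46.9 CPM in induced S34F, against 13.9 and 9.43 in induced WT, and at 9.96 CPM in uninduced S34F, against 9.35 and 7.79 in uninduced WT. The change in difference was 2.13 ± 0.31 (adjusted p = 0.0398 with the block). ETV4, an ETS factor downstream of ERK, stood at 8.59 and 19.2 CPM in induced S34F, against 42.1 and 75.3 in induced WT, and at 74.8 CPM in uninduced S34F, against 71.2 and 71.6. RFLNB, a filamin-binding protein, and ZNNT1, a noncoding RNA, also passed with the block, with changes of -2.10 ± 0.29 and 1.95 ± 0.28. C20orf204 and the ryanodine receptor gene RYR3 missed the threshold, at adjusted p of 0.0581 and 0.0618 with the block. Other genes that passed with a fall were the kinases PIM1 and PIM2, the anti-apoptotic BCL2, the adult globin gene HBB, the repressor GFI1B and the ERK phosphatase DUSP6, which were picked from the 41 after their values were seen. GFI1B stood at 77.7 and 121 CPM in induced S34F, against 242 and 317 in induced WT, and at 299 CPM in uninduced S34F, against 276.5 and 304 in uninduced WT.

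For Q157R the interaction passed for no gene, with 264 (1.24%) at an unadjusted p under 0.05 and 0 by DESeq2 and with the block. HADHA came nearest, at 72.3 and 89.2 CPM in induced Q157R, against 258 and 315.5 in induced WT, and at 242 CPM in uninduced Q157R, against 270.2 and 314 in uninduced WT. Its difference changed by -1.69 ± 0.19 with the block (adjusted p = 0.105, edgeR). SAMHD1, a nucleotide-cleaving restriction factor, stood at 5.62 and 3.99 CPM in induced Q157R, against 25.1 and 14.1 in induced WT, and at 19.5 CPM in uninduced Q157R, against 17.1 and 14.7. PDPR and APEH, an acylpeptide hydrolase, were the others of lower difference, and ACAA1, a peroxisomal thiolase, ABTB1, MINAR1 and KALRN those of higher. KALRN, below WT before induction, stood at 105.5 and 115 CPM in induced Q157R, against 74.6 and 90.2 in induced WT.

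Genes that an earlier report on these data named after induction were near WT before it. The lists were chosen on these libraries and are no independent evidence. Of 9 named as higher in induced S34F (TECTA, AVIL, MXD4, NAALAD2, C20orf204, MSH4, KLRD1, ITGAM and FAS), uninduced log2 fold changes ran from -0.32 ± 0.42 for MSH4 to 0.57 ± 0.92 for FAS, against 1.49 to 4.92 after induction. TECTA, an inner-ear matrix gene, stood at 2.75 CPM in uninduced S34F, against 2.23 and 3.22 in WT, and at 40.4 and 24.5 CPM in induced S34F, against 3.07 and 2.03 in WT. Of 15 named as lower (UBASH3B, TIMP3, CCND1, H4C9, MYEOV, FAH, TOP2A, MCM2, MCM6, TYMS, ITGB3, GFI1B, HNRNPAB, STRAP and GADD45A), uninduced values ran from -0.51 ± 0.29 for H4C9 to 0.47 ± 0.35 for MYEOV in S34F. FAH, the last enzyme of tyrosine breakdown, stood at 233 CPM in uninduced S34F, against 227 and 243 in WT. CCND1, cyclin D1, stood at 20.9 CPM in uninduced S34F, against 20.1 and 17.1 in WT, and at 2.96 and 4.86 CPM in induced S34F, against 17.8 and 13.4. In Q157R, TIMP3 was the exception among the 15, at -1.01 ± 0.41 before induction and 0.08 ± 0.32 after it. Of the 7 named for Q157R or for S34F against Q157R (HADHA, SAMHD1, HERC6, ALPK3, NEB, H2BC10 and AEBP1), uninduced Q157R values ran from -0.46 ± 0.34 for HERC6 to 0.37 ± 0.32 for AEBP1.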

How the data were processed

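RNA from 10 libraries of HEL cells was sequenced after ribosomal RNA depletion as 100-base paired-end reads, per the labels' protocols. The deposited table held whole-number counts of reads per gene, which the authors had not normalized. Genome build GRCh38.p10 is named per the submitters' processing notes, which also list, without roles, the counter HTSeq, the aligners HISAT2 and STAR (2.5.3a, 2.7.0f), the trimmer cutadapt, DESeq2, edgeR and SAMtools. The annotation release and the strand setting are not given in the sources used here. Of 58347 gene entries, 58084 matched GENCODE 29, which supplied symbols, types and positions. No genome sequence was used. Rows without a gene name, among them reads in no feature (19.0 to 33.7% of the table), stayed out of library sizes and tests. There were 0 columns of samples that could not be mapped.

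Counts were scaled by TMM and fitted with edgeR 4.0.16 (quasi-likelihood, R 4.3.3) over 6 groups with 4 residual degrees of freedom. The 21300 genes that passed edgeR's expression filter were tested, and calls used a Benjamini-Hochberg adjusted p under 0.05 over all of them. Uninduced S34F and Q157R had 1 library each and were assumed to vary like the other groups. Ratios of single libraries used log2 CPM with a prior count of 2. The other settings were DESeq2 1.42.0, RLE scaling, TMM on protein-coding genes, nuclear chromosomes only, no filter on low counts, uninduced libraries only, prior counts of 0.5 and 5, leaving out each replicate, and the replicate number as a block. The fits were tested on simulated counts with known changes and no replicate effect, which is no check on the lack of calls here. Values were summarised with pandas 2.3.3 in Python 3.11.15.

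Replicate numbers came from the sample titles, which do not say what a number marks. Libraries of the same number deviated together in 12 of 12 pairs across groups (r = 0.211 to 0.652), so the fit with the block is given wherever it changes a call. With only 2 numbers, the pairs of a group mirror each other. The design text calls the RNA-seq replicates biological duplicates and nothing states separate cultures, so p-values measure the spread between these libraries, which may be technical.

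The members and gene lists were chosen with earlier results of these data known. U2AF1 and U2AF2 are named first. For each mutant line and their mean, up to 10 genes each way are named among called genes, then by the lowest unadjusted p, with a mean log2 CPM of at least 3, a proper symbol and mutant values outside the WT range. For S34F against Q157R and for the interactions up to 4 each way are named, and from each list the called or the 2 most abundant members. Of 784 list entries, 4 did not match the table. Some genes these rules choose are not reported here. Promoters came from RefSeq (GRCh38.p14).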

Additional observations from a re-analysis of the deposited data

Results flagged for a closer look

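The difference between S34F and WT changed with induction for 41 genes, by the test of the change itself in the fit with the replicate block (edgeR's quasi-likelihood test, adjusted p under 0.05); without the block 0 genes passed. Among the named genes, the log2 difference between S34F and WT was larger after induction than before it by 2.125 for MXD4 and by 1.95 for ZNNT1. It changed by -2.478 for ETV4, by -2.409 for TIMP3, by -2.39 for UBASH3B and by -2.095 for RFLNB. The induced S34F libraries lay on the side of the change relative to both induced WT libraries in 2 of 2 cases for each gene. The test that chose these genes used the same libraries, so their place is no separate check.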

How the results depend on the processing

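No gene was called in any uninduced comparison with RLE scaling, TMM on protein-coding genes, nuclear chromosomes only, uninduced libraries only, DESeq2, the replicate block or any single replicate left out. Without the filter on low counts the calls were 63 for S34F, 119 for Q157R, 143 for the mean of both lines, 32 for S34F against Q157R, 306 and 44 for the S34F and Q157R changes with induction, and 2410 and 15 for induced S34F and Q157R. The genes called there in the uninduced comparisons had all passed the filter of the main fit. Induced S34F had 360 calls in the fit reported, 1612 with DESeq2, 4603 with the replicate block, 4600 with RLE scaling and the block, and 0 to 418 with 1 replicate left out. Induced Q157R had 2 with the block, 2 with RLE scaling and the block, and 3 with DESeq2. The S34F change with induction had 41 calls with the block, 37 with RLE scaling and the block and 27 with DESeq2. A fit with the block that left out a WT uninduced library was chosen after seeing the data. It left 1 library in each uninduced group and took the replicate effect from the induced libraries alone. Without replicate 1 it called 270, 23 and 163 for S34F, Q157R and their mean, 1047 and 24 for the changes with induction, and 6073 and 25 for induced S34F and Q157R. Without replicate 2 it called 164 for the S34F change, and 6032 and 18 for induced S34F and Q157R.

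U2AF2 reversed sign in some settings and was called in none. For S34F it was -0.4032 ± 0.2097 with the block and without WT replicate 1, and it ranged from -0.1439 to 0.0567 and for Q157R from -0.00405 to 0.1965 with 1 replicate left out. For Q157R it was -0.1002 with the block, -0.0854 with RLE scaling and the block, -0.2634 with the block and without WT replicate 1, and -0.00405 without WT replicate 2. For the mean it was -0.1699 with the block, -0.1688 with RLE scaling and the block, -0.3333 ± 0.1879 with the block and without WT replicate 1, -0.07396 without WT replicate 2, with or without the block, and 0.1266 without WT replicate 1. The uninduced median of the 149 genes higher in induced S34F was 0.1305 with RLE scaling and the block, 0.2016 without the filter, 0.06517 with the block and without WT replicate 1, and 0.1175 to 0.1659 with 1 replicate left out. That of the 211 lower genes was -0.1131 with the block, -0.1261 with RLE scaling and the block, -0.05138 without the filter, -0.1133 with the block and without WT replicate 2, and -0.1133 to -0.07692 with 1 replicate left out. With a prior count of 5, 0 genes lay past 2-fold in S34F over WT replicate 1. The cause of these changes was not tested. Each mutant line rests on 1 library, so a difference near the spread between WT libraries was not detectable here.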

Other observations

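Among the gene classes looked at, medians before induction were widest for the 1641 processed pseudogenes, at -0.25 in S34F and -0.22 in Q157R. Over 13602 protein-coding genes the median log2 fold change was -0.02 in S34F and -0.02 in Q157R against WT, over 1656 antisense genes 0.08 and -0.04, and over 466 sense intronic RNAs 0.11 and 0.09. After induction S34F had medians of 0.44 over 1555 long intergenic RNAs, 0.37 over antisense genes and 0.70 over sense intronic RNAs, and reads in no annotated feature made up 33.7% and 33.5% of the table in induced S34F, against 22.7% and 22.7% in induced WT. In uninduced cells that share was 20.3% in S34F, against 19.5% and 19.0% in WT. Before induction the long intergenic RNAs had medians of 0.00 in S34F and -0.04 in Q157R.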
